A study of Mus musculus with 9 samples.

Results

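Ribosome biogenesis genes encode the factors that make ribosomes in the nucleolus: the RNA polymerase I machinery, the small nucleolar ribonucleoproteins (snoRNPs) that modify ribosomal RNA, the assembly factors of both subunits, and the transcription factor Myc, which is known to drive many of them. The 37 genes described here were chosen by name from this pathway, with earlier results of these data known, out of 54532 entries in the count files. All 37 were in the files and all 37 passed the filter on low counts. They are followed through tumours of B16-F10, a mouse melanoma cell line, grown under the skin of C57BL/6 mice and taken on day 16.

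Ribosome assembly starts when RNA polymerase I copies the ribosomal DNA into a long precursor RNA. Box C/D snoRNPs add methyl groups to that precursor, box H/ACA snoRNPs turn uridines into pseudouridines, and separate sets of factors fold and cut the parts that become the small and the large subunit. In melanoma, as in other fast-growing tumours, these genes are known to be highly active.

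The study compared 3 groups of 3 bulk RNA-seq libraries, all from B16-F10 tumours, with no treatment given on the labels. Control tumours carried a control short hairpin RNA (genotype label WT). The other tumours carried shFBXO38#1 (hairpin 1) or shFBXO38#2 (hairpin 2), hairpins directed at Fbxo38, the gene of an F-box protein that picks substrates for an SCF ubiquitin ligase. The sources used here do not give the hairpin sequences, whether the hairpin lines were clones or pools, or the age and sex of the mice. The groups were taken from the titles, since the genotype labels of the 6 hairpin samples name a different F-box gene in each sample, from FBXO38 to FBXO43. Nothing on the labels ties the replicates to separate animals. P-values therefore measure only the spread between the libraries, and whether that is a spread between animals is not known.

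Library totals ran from 15322163 to 17342554 counts, and member counts in a library from 528 (Rrp9) to 14986 (Ncl). Levels are given as CPM, the counts scaled to a common library size. Fbxo38 stood at 21.7, 31.3 and 30.8 CPM in the controls, at 35.1, 21.0 and 22.0 CPM in the libraries labelled hairpin 1, and at 21.0, 11.4 and 11.9 CPM with hairpin 2. The libraries labelled hairpin 1 overlapped the controls (log2 fold change -0.10, SE 0.28, edgeR quasi-likelihood test with Benjamini-Hochberg adjustment, adjusted p = 1), so directions drawn from that label rest on the label alone. Hairpin 2 lay below every control (log2 fold change -0.92, SE 0.29, edgeR adjusted p = 0.254), but its replicate 1 only just, at 21.0 CPM against 21.7. Replicate 1 labelled hairpin 1 (60.6) and replicate 2 of hairpin 2 (-54.8) stood apart along the first principal component, which held 35.8% of the variance. All 7 melanocyte markers were detected in every library, with a summed level of 20500 to 26900 CPM.

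Promoter sequence was looked at because Myc, bound to Max, is known to recognise the E-box CACGTG. RefSeq's promoter table (GRCm38.p6) held 30 of the 37 genes. Within the 250 bases before the annotated start, 2 of those 30 genes (6.7%) had CACGTG, which reads the same on both strands, against 6.9% of all 27025 genes in the table. The related hexamer CGCGTG, searched on both strands (its complement is CACGCG), stood in 4 of the 30 (13.3%) against 8.7% of all genes. A match is a run of letters and not a measured binding site. The 2 genes with CACGTG were Nop2, a ribosomal RNA cytosine methyltransferase of the large subunit pathway, and Rrn3, the factor that lets RNA polymerase I start. Their windows are shown with the E-box in capitals, both on the plus strand. Distances are counted from the start in the RefSeq table, which for both genes matches the beginning of no GENCODE transcript. The Nop2 window (chr6:125131763-125131882, GRCm38.p6) is 120 bases long, and its E-box begins 60 bases before the start. The Rrn3 window (chr16:13780449-13780698, GRCm38.p6) is 250 bases long, with E-boxes beginning 215 and 48 bases before the start.
Nop2: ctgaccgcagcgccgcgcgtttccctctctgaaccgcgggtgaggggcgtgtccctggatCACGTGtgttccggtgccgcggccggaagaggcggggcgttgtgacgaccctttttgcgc
Rrn3: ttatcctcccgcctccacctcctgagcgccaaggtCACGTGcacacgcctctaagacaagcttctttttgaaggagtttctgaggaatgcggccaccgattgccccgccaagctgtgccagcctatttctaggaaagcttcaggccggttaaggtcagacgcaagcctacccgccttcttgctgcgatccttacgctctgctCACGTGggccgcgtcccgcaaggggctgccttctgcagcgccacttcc

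The 37 genes were well expressed. Gar1 had the lowest mean level, at percentile 62.5 of the 14193 genes tested, and Ncl the highest, at percentile 99.1. Per kilobase of the longest annotated transcript, control levels were highest for Npm1, a nucleolar chaperone also called nucleophosmin, at 404 ± 27.8 CPM per kb (SD, n = 3). Nhp2, a box H/ACA core protein, followed at 186 ± 9.21 and Ncl (nucleolin) at 96.7 ± 10.8 CPM per kb, a value close to the 91.6 ± 5.03 of Bop1 in the large subunit pathway. At the low end stood Wdr12 at 6.62 ± 0.570 and Utp20 at 7.36 ± 0.820 CPM per kb (SD, n = 3), which do not differ beyond their spread. The longest transcript in the annotation is 10012 bases for Wdr12 and 8202 bases for Ncl. A shorter expressed form would raise the value of either gene and could change this order, including the closeness of Ncl to Bop1. From its lowest to its highest library, a member spanned a factor of 1.21 (Npm1) to 2.13 (Myc), with a median of 1.46, against a median of 1.73 for all tested genes.

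**Figure D1:**
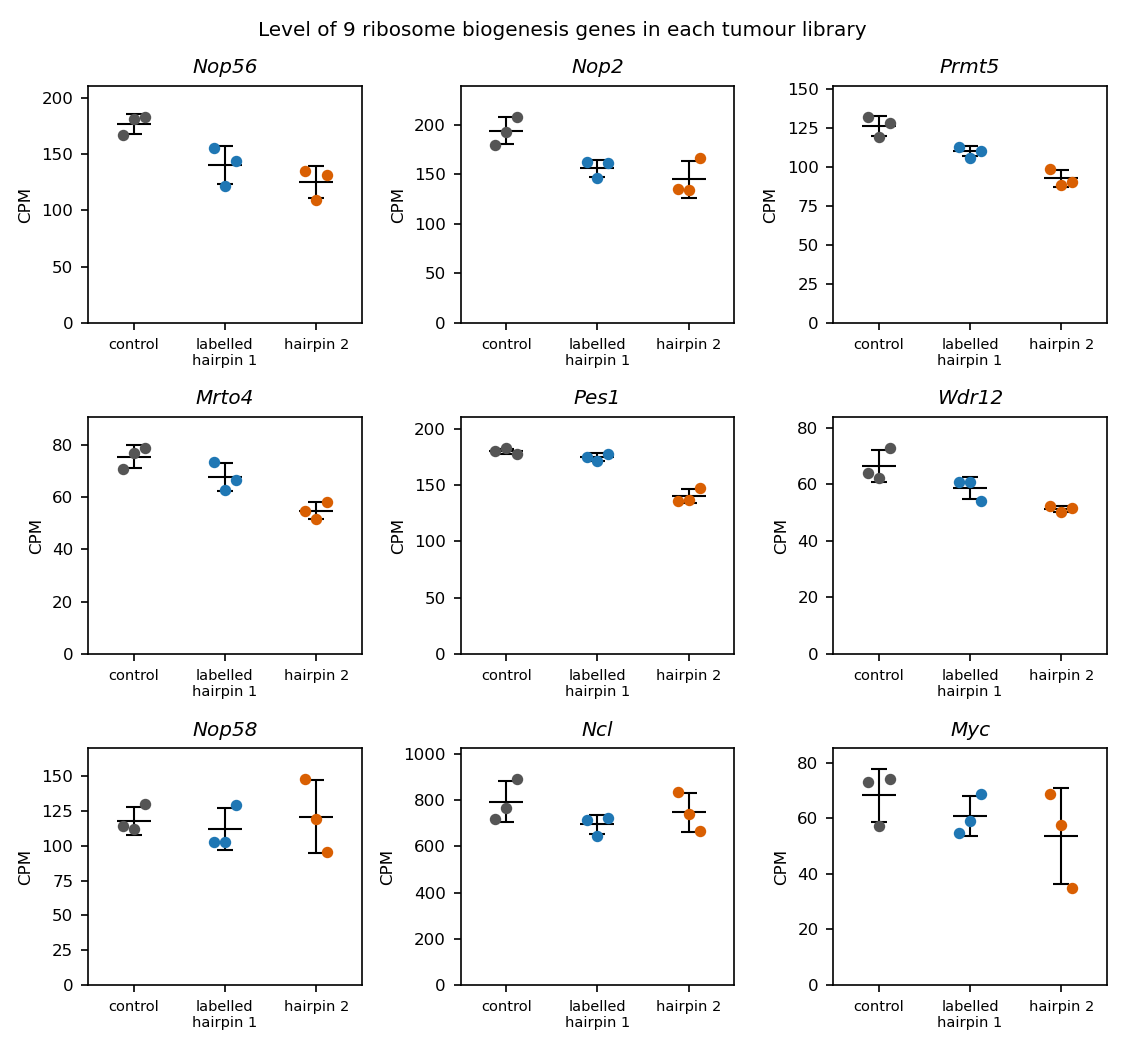
CPM of 9 members in each library (points), with the group mean and SD as bars (n = 3 per group). Nop56, Nop2, Prmt5, Wdr12 and Pes1 have every control above every hairpin library, while Nop58, Ncl and Myc overlap between groups.

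Summed over the 37 genes, the controls held 5339 ± 220 CPM (SD, n = 3), the libraries labelled hairpin 1 held 4859 ± 226 and hairpin 2 held 4776 ± 203. The lowest control sum was 5130, above the highest sum labelled hairpin 1 (5076) and the highest of hairpin 2 (4985). Of the 37 genes, 25 had their highest library among the controls, where 27.0% of all tested genes had theirs. Only 1 had its lowest library there, against 26.9% of all genes. In bulk tissue, fewer cells of a type and less RNA per cell cannot be told apart.

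Libraries of a group were not alike. Control replicates 1 and 3 held the highest value of 12 and 10 members, and control replicate 2 of 3. With hairpin 2, replicate 3 had the lowest sum (4580 CPM) and the lowest value of 10 members, while replicate 1 held both the highest value of 6 members and the lowest of 5. Replicate 3 labelled hairpin 1 (5076 CPM) came close to the lowest control.

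**Figure D2:**
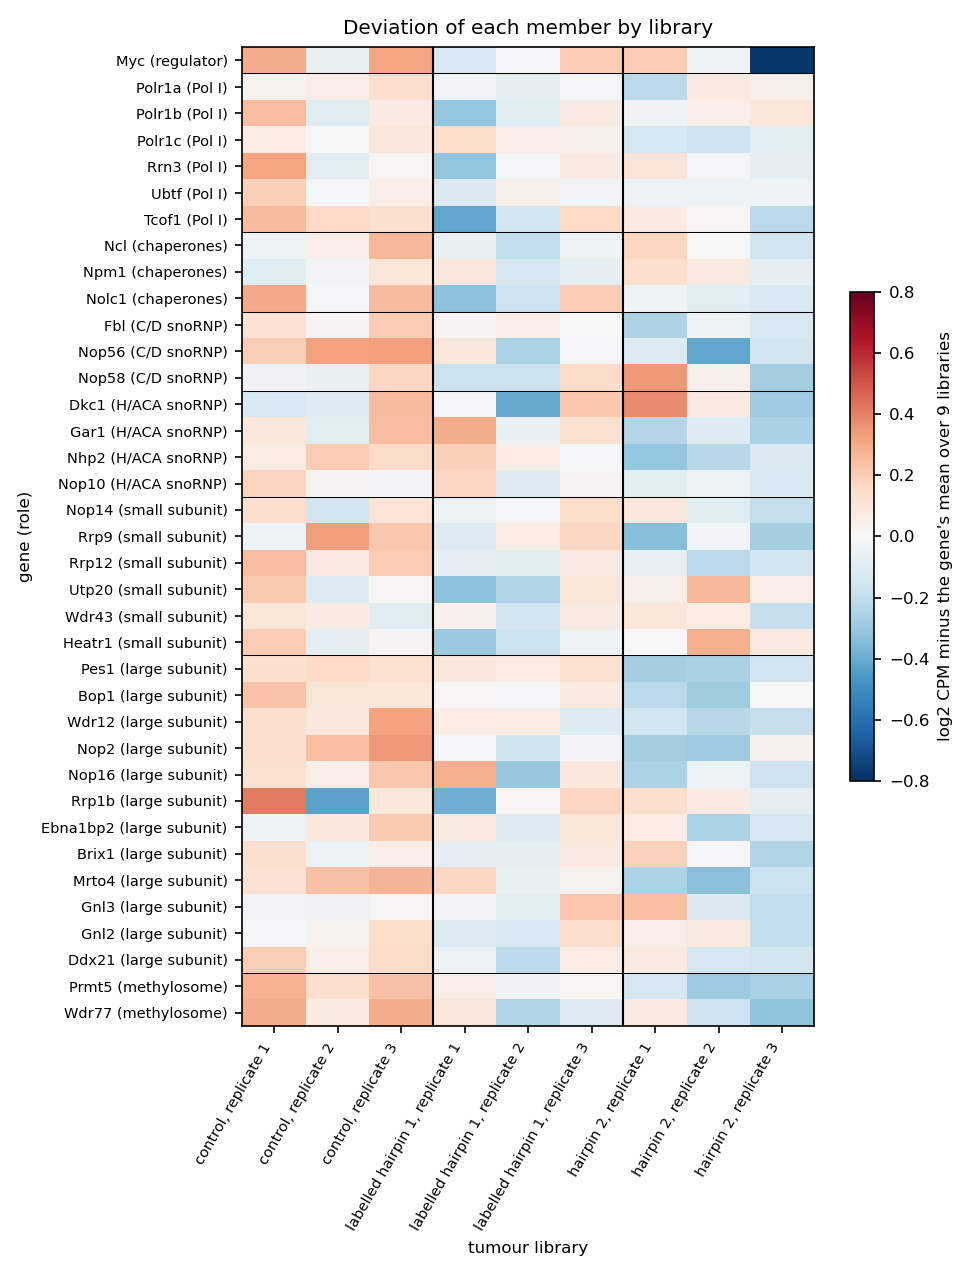
Each member's log2 CPM in each library minus its mean over the 9 libraries, ordered by role, in 3 groups of 3 columns. Control replicates 1 and 3 hold the highest value of 12 and 10 members, and the deepest single value is Myc in hairpin 2 replicate 3 (34.8 CPM).

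The first comparison asked how the genes stood with hairpin 2, the hairpin whose libraries had less Fbxo38 than the controls, though replicate 1 only just. Nop56, Mrto4, Prmt5, Nop2, Pes1, Wdr12 and Nhp2 stood at 70.7% to 78.4% of control in the fit, with no overlap between groups for any of these 7. In edgeR, 0 of 37 members passed an adjusted p of 0.05, as did 0.0% of all genes, and limma-voom also called 0. At an unadjusted p under 0.05, 12 members (32.4%) were lower with hairpin 2, where 6.27% of all genes were, and 0 were higher, against 8.14%. DESeq2 called 7 members lower past an adjusted p of 0.05 and 0 higher, against 1.03% and 1.11% of all genes. These were Pes1 (0.00289), Prmt5 (0.00345), Mrto4 (0.0102), Nop56 (0.0174), Nhp2 (0.0292), Nop2 (0.0333) and Wdr12 (0.0447), all as DESeq2 adjusted p. Across the 20 alternative settings the adjusted p of these genes reached 0.727, and 0.746 for Nhp2. Every hairpin 2 library lay below every control for 18 members (48.6%), against 10.2% of all genes, and above for 0, against 10.6%. The fitted log2 fold change was negative for 32 of 37 (86.5%), against 48.5% of all genes, with a median of -0.19 against 0.01.

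**Figure D3:**
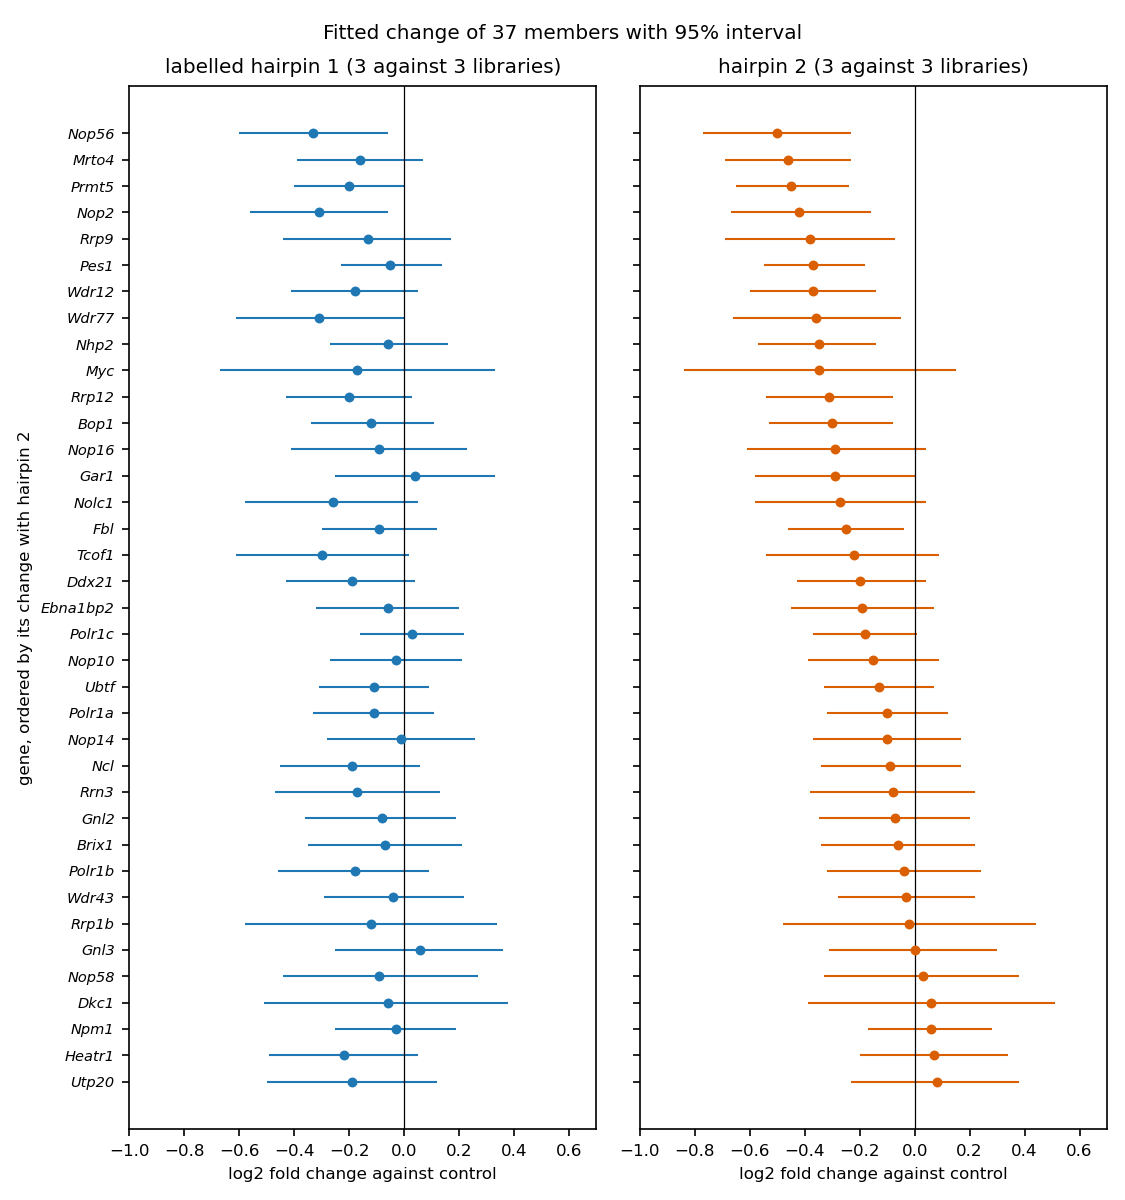
Fitted log2 fold change of each member with its 95% interval from edgeR, hairpin 1 and hairpin 2 each against the same 3 controls, ordered by the value with hairpin 2. With hairpin 2, Nop56 (-0.50) and Mrto4 (-0.46) lie farthest left, and Utp20 (0.08), Heatr1 (0.07), Npm1 (0.06) and Dkc1 (0.06) lie just right of 0, where all but Npm1 turned sign under some alternatives.

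Myc (GRCm38 chromosome 15, 61985391 to 61990374) stood at 73.2, 57.3 and 74.2 CPM in the controls, at 54.6, 59.0 and 68.7 in the libraries labelled hairpin 1, and at 68.8, 57.6 and 34.8 with hairpin 2. The groups overlapped, and within hairpin 2 replicate 3 was well below the other two. The log2 fold change of Myc was -0.35 (SE 0.22, edgeR adjusted p = 0.499) with hairpin 2 and -0.17 (SE 0.22) with the label hairpin 1. The 95% intervals were -0.84 to 0.15 and -0.67 to 0.33, the widest of the 37 in each comparison.

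Among the 6 genes of RNA polymerase I transcription, 0 reached an unadjusted p of 0.05 with hairpin 2, and 3 lay below the controls without overlap (6.27% and 10.2% of all genes). Ubtf, which encodes the upstream binding factor that opens ribosomal DNA, stood at 251, 219 and 228 CPM in the controls, at 203, 228 and 217 labelled hairpin 1, and at 213, 213 and 214 with hairpin 2. Hairpin 2 lay just under the lowest control, by less than the spread of the controls (log2 fold change -0.13, SE 0.09, edgeR adjusted p = 0.54). Tcof1 encodes treacle, a partner of the polymerase that is mutated in Treacher Collins syndrome. It stood at 143, 134 and 131 CPM in the controls, at 89.9, 109 and 134 labelled hairpin 1, and at 126, 121 and 104 with hairpin 2 (log2 fold change -0.22, SE 0.14, edgeR adjusted p = 0.493). The polymerase subunit Polr1c, shared with RNA polymerase III, was at 110 ± 3.33 CPM in controls and 97.3 with hairpin 2, without overlap. Polr1a, Polr1b and Rrn3 overlapped between these groups, with log2 fold changes of -0.10, -0.04 and -0.08.

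Of the nucleolar chaperones, Ncl stood at 720, 768 and 892 CPM in the controls, at 713, 647 and 724 labelled hairpin 1, and at 834, 742 and 667 with hairpin 2. Nucleolin, which binds the precursor RNA, thus varied as widely within groups as between them (hairpin 2 log2 fold change -0.09, SE 0.12, edgeR adjusted p = 0.767). Npm1 had a mean of 661 CPM in controls and 687 with hairpin 2. Nolc1, a snoRNP chaperone, had means of 215 and 178 CPM without overlap (log2 fold change -0.27, edgeR adjusted p = 0.394).

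The 3 box C/D proteins, which form 1 particle, gave different values. Nop56 (chromosome 2, 130274430 to 130279313) was at 167, 181 and 183 CPM in the controls, at 155, 122 and 144 labelled hairpin 1, and at 135, 109 and 131 with hairpin 2. Every control lay above all 6 hairpin libraries. Its log2 fold change with hairpin 2 was -0.50 (SE 0.12, edgeR adjusted p = 0.241), the lowest of the 37. Fibrillarin (Fbl), the methyltransferase of the particle, had a log2 fold change of -0.25 (SE 0.09, edgeR adjusted p = 0.279). Nop58, the paired scaffold protein of Nop56, was at 118 ± 9.98 CPM in controls, with libraries from 95.8 to 148 CPM with hairpin 2 (log2 fold change 0.03, SE 0.16).

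In the box H/ACA particle, Nhp2 (chromosome 11, 51619735 to 51623714) was at 183, 202 and 195 CPM in the controls, at 201, 183 and 174 labelled hairpin 1, and at 142, 151 and 162 with hairpin 2. Hairpin 2 lay below all other libraries (log2 fold change -0.35, SE 0.10, edgeR adjusted p = 0.241). Gar1 stood at 42.3, 37.4 and 47.1 CPM, then 48.8, 38.1 and 43.3, then 33.8, 37 and 33.3 in the same order of groups, and its highest hairpin 2 library lay just under the lowest control. The pseudouridine synthase Dkc1 (dyskerin) had means of 54.9 CPM in controls and 57.3 with hairpin 2, and Nop10 of 56.1 and 50.7 CPM.

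The small subunit factors held 2 of 6 genes that were lower at an unadjusted p under 0.05 with hairpin 2 (6.27% of all genes). These were Rrp9, a protein of the U3 particle (log2 fold change -0.38, SE 0.14, edgeR adjusted p = 0.27, groups overlapping), and Rrp12, which takes part in export of the small subunit precursor (-0.31, SE 0.10, edgeR adjusted p = 0.262, no overlap). Wdr43, a processome protein and the most abundant of these 6 by CPM, stood at 93.2, 91.6 and 81.9 CPM in the controls, at 89.6, 78.6 and 91.8 labelled hairpin 1, and at 93.5, 91.2 and 76.8 with hairpin 2. Its groups overlapped throughout (log2 fold change -0.03, SE 0.11, edgeR adjusted p = 0.929). The large processome scaffolds Utp20 and Heatr1 had means of 64.9 and 75.9 CPM in controls and of 68.4 and 79.8 with hairpin 2. Nop14, a further processome protein, overlapped too, with means of 56.1 and 52.4 CPM.

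Among the large subunit factors, 5 of 12 were lower with hairpin 2 at an unadjusted p under 0.05 (6.27% of all genes), and the median log2 fold change was -0.24. Pes1, Bop1 and Wdr12 form the PeBoW complex, which is needed to process the precursor of the large subunit RNA. Pes1 (chromosome 11, 3963975 to 3980004) was at 180, 183 and 178 CPM in the controls, at 175, 171 and 178 labelled hairpin 1, and at 136, 137 and 147 with hairpin 2. The controls and the libraries labelled hairpin 1 ran from 171 to 183 CPM, and the hairpin 2 libraries formed a separate lower set (log2 fold change -0.37, SE 0.08, edgeR adjusted p = 0.241). Wdr12 (chromosome 1, 60069785 to 60098645) was at 64.0, 62.1 and 72.8 CPM, then 60.9, 60.7 and 54.0, then 52.3, 50 and 51.4, in the same order. Each hairpin group lay below the controls (hairpin 2 log2 fold change -0.37, SE 0.10, edgeR adjusted p = 0.241). Bop1, at 228 ± 12.5 CPM in controls, was at 185 with hairpin 2 (-0.30, edgeR adjusted p = 0.261).

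Nop2 (chromosome 6, 125131909 to 125144753), the first of the genes with an E-box in its window, was at 180, 193 and 208 CPM in the controls, at 162, 146 and 161 labelled hairpin 1, and at 135, 134 and 167 with hairpin 2. Every hairpin library was below every control (hairpin 2 log2 fold change -0.42, SE 0.11, edgeR adjusted p = 0.241). Rrn3, the other gene with an E-box in its window, had group means of 123, 110 and 116 CPM that overlapped. Mrto4 (chromosome 4, 139347435 to 139352576), which holds the place of a stalk protein on the immature large subunit, was at 70.7, 76.9 and 78.8 CPM, then 73.3, 62.8 and 66.4, then 54.7, 51.7 and 58.0. Hairpin 2 lay below all other libraries (log2 fold change -0.46, SE 0.10, edgeR adjusted p = 0.241). Ddx21, an RNA helicase, was at 238, 215 and 231 CPM, then 201, 180 and 217, then 219, 189 and 187, with overlap (hairpin 2 log2 fold change -0.20, SE 0.11, edgeR adjusted p = 0.406). The nucleolar GTPases Gnl3 (nucleostemin) and Gnl2, with Brix1 and Rrp1b, had log2 fold changes between -0.07 and -0.00 with hairpin 2. Nop16 (62.2 and 51.1 CPM, no overlap) and Ebna1bp2 (79.7 and 69.6 CPM, overlapping) complete the large subunit set, with group means given for controls and hairpin 2.

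The methylosome, which methylates arginines of nucleolar and spliceosomal proteins, held the member of smallest p in this comparison. Prmt5 (chromosome 14, 54507187 to 54517525), its enzyme, was at 132, 119 and 128 CPM in the controls, at 113, 106 and 110 labelled hairpin 1, and at 98.8, 88.7 and 90.6 with hairpin 2. The 3 groups did not overlap one another, with hairpin 2 lowest (log2 fold change -0.45, SE 0.09, edgeR adjusted p = 0.241). Its partner Wdr77 was at 58.9, 50.6 and 58.8 CPM, then 51.1, 40.5 and 44.4, then 50.3, 42.8 and 38.3. Hairpin 2 lay just under the lowest control (log2 fold change -0.36, SE 0.14, edgeR adjusted p = 0.287).

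The libraries labelled hairpin 1 were set against the same 3 controls, so the values of both hairpins share them and are given side by side only. Nop56 (log2 fold change -0.33, SE 0.12), Nop2 (-0.31, SE 0.11), Wdr77 (-0.31, SE 0.14) and Prmt5 (-0.20, SE 0.09) had the smallest p, and Tcof1 followed (-0.30, SE 0.14), each with an edgeR adjusted p of 1. These 4 of 37 lower members at an unadjusted p under 0.05 stand against 1.32% of all genes, and 0 were higher, against 1.85%. With edgeR, DESeq2 and limma-voom, 0 members passed an adjusted p of 0.05, as did 0.0% of all genes in edgeR. Groups did not overlap for 7 members (Polr1a, Nop56, Pes1, Bop1, Wdr12, Nop2 and Prmt5), all lower, against 4.3% of all genes, and for 0 higher, against 4.09%. Of the 37 log2 fold changes 34 were negative, against 47.4% of all genes, with a median of -0.12 against 0.01. The count of 4 dropped to 0 without control replicate 3 and without replicate 2 labelled hairpin 1, and to 2 without control replicate 1 or replicate 2 of hairpin 2. Shares of all genes in those fits are not given here. In the libraries labelled hairpin 1 the summed cell cycle markers (7 genes) ran from 1810 to 2200 CPM, below the 2340 to 2450 CPM of the controls, and their part in this result was not tested.

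Set together, the 6 hairpin libraries had 11 members lower at an unadjusted p under 0.05 and 0 higher, against 3.36% and 3.92% of all genes. In edgeR, 0 members passed an adjusted p of 0.05 (0.0% of all genes). DESeq2 called 0 members, against 0.0211% of all genes lower and 0.0352% higher, and limma-voom called 0. Nop56, Nop2, Prmt5, Wdr12, Bop1 and Pes1 were lower in all 6 hairpin libraries than in any control, 6 members against 1.61% of all genes, and 0 were higher, against 1.36%. The margin for Pes1 was smaller than the rounding of its values. Log2 fold changes were negative for 35 of 37, against 47.8% of all genes, with a median of -0.13. For Nop56 (log2 fold change -0.42, SE 0.10) and Nop2 (-0.36, SE 0.10) a two-sided exact permutation test gave p = 0.0119, which is as low as 6 against 3 libraries can go. For Prmt5 (-0.32, SE 0.08) and Wdr12 (-0.28, SE 0.09) the exact permutation p was 0.0238. These genes were picked among the 5 members of smallest p in this same comparison, so a low permutation p adds no separate evidence. The permutation p is not adjusted for the 37 members and pools the libraries of both hairpins. With 3 against 3 libraries the smallest possible exact p is 0.1. Without control replicate 3 the count of 11 dropped to 5, and the share of all genes in that fit is not given here.

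Between the hairpins, Pes1 (log2 fold change -0.32, SE 0.08, edgeR adjusted p = 0.375), Nhp2 (-0.29, SE 0.10), Mrto4 (-0.30, SE 0.10), Prmt5 (-0.24, SE 0.09), Gar1 (-0.32, SE 0.13) and Polr1c (-0.21, SE 0.09) were lower with hairpin 2. Heatr1 was higher (0.29, SE 0.12). These 6 lower and 1 higher members at an unadjusted p under 0.05 compare with 5.23% and 6.43% of all genes. In edgeR 0 passed an adjusted p of 0.05 (0.0% of all genes), limma-voom called 0, and DESeq2 called Pes1 lower (DESeq2 adjusted p = 0.0213, against 0.352% of all genes, and up to 0.994 over the alternatives). Groups did not overlap for 8 lower and 1 higher member, against 7.67% and 8.31% of all genes, and 23 of 37 log2 fold changes were negative, against 49.8%. The median was -0.06, against 0.0 for all genes. The 7 genes at p under 0.05 became 2 without replicate 1 labelled hairpin 1, 4 without replicate 2 of hairpin 2, and 2 once each library's trend with transcript length and GC content was removed. For the fits with a library left out, shares of all genes are not given here.

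Proteins of 1 particle can be compared within a library. The log2 ratio of Bop1 to Pes1 CPM stayed between 0.25 and 0.49 over the 9 libraries, and that of Wdr12 to Pes1 between -1.72 and -1.29. The ratio of Nop56 to Nop58 did not hold as closely: it was 0.55, 0.70 and 0.49 in the controls, 0.59, 0.24 and 0.16 labelled hairpin 1, and -0.13, -0.13 and 0.46 with hairpin 2. All hairpin 2 libraries lay below the controls for this ratio, the nearest at 0.46 against 0.49. It was the only 1 of 10 ratios computed without overlap between these groups. The ratio of Gar1 to Dkc1 was -0.37 ± 0.12 in controls and -0.70 ± 0.33 with hairpin 2 (SD, n = 3), with overlap. In the annotation the Nop58 transcript (9507 bases) is longer than that of Nop56 (3627 bases), and the length trend described next was not removed from these ratios.

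**Figure D4:**
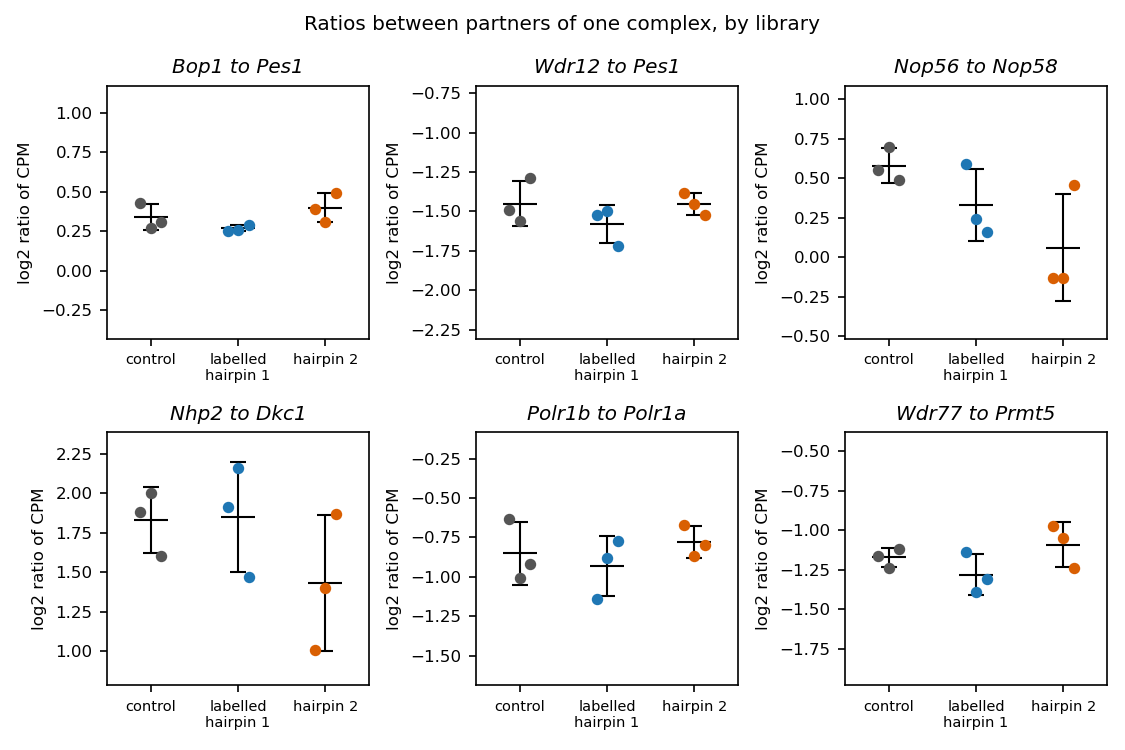
Log2 ratios of CPM between genes of partner proteins, 1 point per library, with the group mean and SD as bars (n = 3 per group). Bop1 to Pes1 stays within 0.25 to 0.49, and Nop56 to Nop58 ranges from -0.13 to 0.70 with replicates 1 and 2 of hairpin 2 lowest.

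Transcript length and GC content were set beside the fold changes. With hairpin 2 the Spearman rho between log2 fold change and length was 0.373 over 14109 genes and 0.289 over the 37 members. For the label hairpin 1 it was -0.0189 over all genes and -0.523 over the members, and between the hairpins 0.419 and 0.612. With GC content the rho was -0.25 over all genes and -0.53 over the members with hairpin 2, 0.0296 and -0.146 for the label hairpin 1, and -0.163 and -0.473 for both hairpins. These are descriptions across genes that share the same libraries. The members had a median length of 2923 bases, against 3205 for all genes. With hairpin 2, members shorter than their median had a median log2 fold change of -0.27 and the longer ones of -0.13. Once each library's length and GC trend was removed, these became -0.13 and -0.28, and 14 members rather than 12 had an unadjusted p under 0.05, all lower. Over all genes, the lower ones at that p went from 890 to 915. Among members with long annotated transcripts, Wdr12 went to -0.79, Ncl to -0.44, Polr1a to -0.43, Nop58 to -0.38 and Utp20 to -0.27. Which transcript was expressed is not known from these counts. Each length and the correction rest on the longest annotated one, and a shorter expressed form would change these values. Wdr12 (40.4% GC), Nop58 (41%) and Ncl (42.8%) are also low in GC content, and the fit removed both trends together. Nop56 (-0.53), Prmt5 (-0.36), Pes1 (-0.33) and Mrto4 (-0.30) stayed lower, with edgeR adjusted p of 0.389 to 0.417 in that fit. Over all alternatives the adjusted p of these 4 genes ran from 0.00289 to 0.727. Trend removal also moved the split over all genes: with hairpin 2, 43.5% of the genes at p under 0.05 were lower as fitted, 53.3% with upper-quartile scaling and 67.1% without the trend. For the label hairpin 1 the split was 41.8% and 62.6%, for both hairpins 46.1% and 69.2%, and between the hairpins 44.9% and 59.9%, or 59.0% with upper-quartile scaling.

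**Figure D5:**
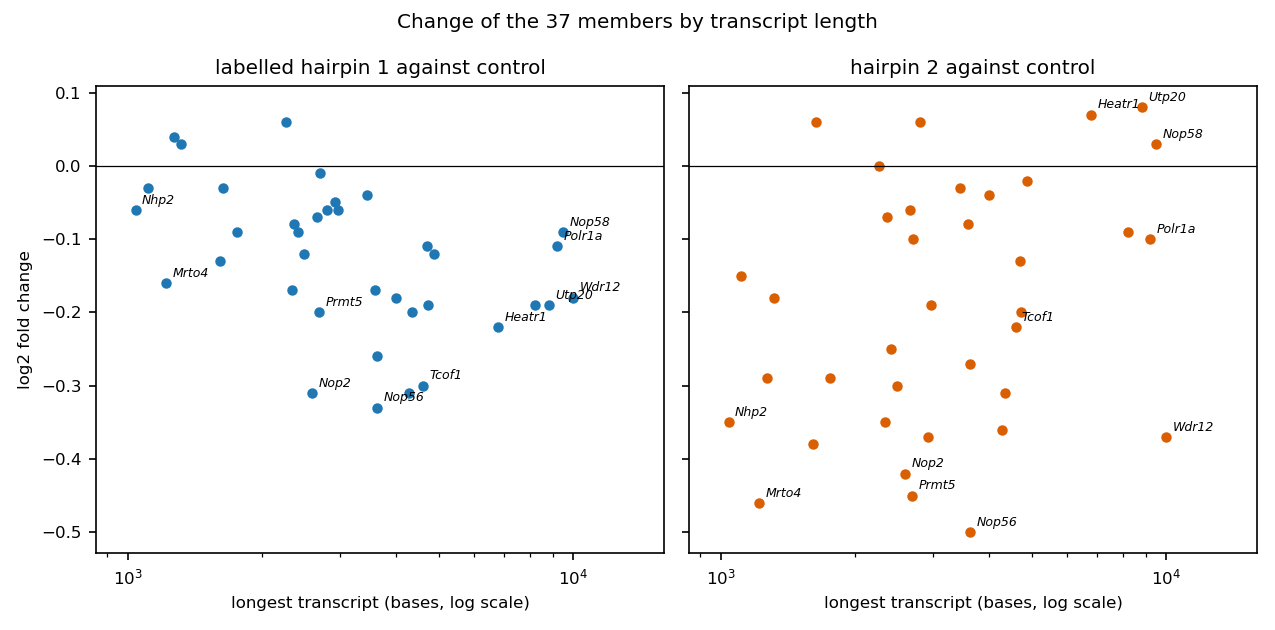
Fitted log2 fold change of each member against the length of its longest transcript (log axis), 1 point per member, for the label hairpin 1 and for hairpin 2 against control. Longer members lie lower in the first panel (rho -0.523), whereas in the second the rank correlation has the other sign (0.289).

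Overlapping genes can add counts where counting ignores strand, and the sources used here do not say whether strand was used. Exons of another GENCODE M21 gene overlapped 17 of the 37 members, among them Bop1 (Mroh1), Pes1 (4930556J24Rik), Wdr12 (Carf), Nhp2 (Rmnd5b), Wdr77 (Atp5f1) and Nop56 (Idh3b and 4 small RNA genes), whose values are uncertain to that extent. With hairpin 2, 5 of the 20 members without overlap and 7 of the 17 with overlap had an unadjusted p under 0.05, all lower (6.27% of all genes). Shares for all genes with and without overlap are not given here, and the part of overlap was not tested. Nop2, Prmt5, Mrto4, Rrp12 and Fbl are the 5 without overlap. Mrto4 has 2 annotated pseudogenes of its name.

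The wider pathway was described with a list of 128 further ribosome biogenesis genes, of which 127 were tested. With hairpin 2, 30 were lower and 2 higher at an unadjusted p under 0.05, against 6.27% and 8.14% of all genes. The lower ones made up 23.6% of the list, and the median log2 fold change was -0.14. For the label hairpin 1 the counts were 2 and 0 with a median of -0.08, and the 1.57% lower is close to the 1.32% of all genes. For both hairpins they were 18 and 0 (14.2% lower, against 3.36% lower and 3.92% higher over all genes) with a median of -0.11. Between the hairpins they were 15 and 4 (11.8% lower, against 5.23% lower and 6.43% higher over all genes) with a median of -0.05. In edgeR 0 of the 127 passed an adjusted p of 0.05 in any comparison. DESeq2 called 6 lower with hairpin 2 (1.03% of all genes) and 2 lower between the hairpins (0.352% of all genes). The genes of RNA trimming, 9 subunits of the exosome and 4 other factors, held 5 of 13 lower genes with hairpin 2 and a median of -0.24, and the further RNA polymerase I genes 2 lower and 2 higher of 11. Exosc8 was at 42.0, 38.6 and 46.0 CPM in the controls, at 34.8, 36.9 and 36.6 labelled hairpin 1, and at 30.6, 30.6 and 30.4 with hairpin 2, so that the groups formed 3 separate steps (hairpin 2 log2 fold change -0.47, SE 0.11, edgeR adjusted p = 0.241). Exosc5 (-0.44, SE 0.11) and Nop9 (-0.39, SE 0.10), a small subunit factor, were next with hairpin 2, both with an edgeR adjusted p of 0.241.

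For the label hairpin 1 the smallest p in this list belonged to the nuclease gene Isg20l2 (log2 fold change -0.37, SE 0.11), then Bud23, a ribosomal RNA methyltransferase (-0.23), and the processome gene Pwp2 (-0.21), each with an edgeR adjusted p of 1. Bud23 was at 72.5, 73.1 and 71.6 CPM in the controls, at 63.2, 57.8 and 64.3 labelled hairpin 1, and at 52.5, 54.1 and 61.0 with hairpin 2, all 6 below the controls. Bysl, a small subunit factor, was at 90.2 ± 10.2 CPM in controls, 76.5 ± 1.94 labelled hairpin 1 and 67.5 ± 7.02 with hairpin 2 (SD, n = 3). Between the hairpins, Exosc4 (-0.49), Exosc5 (-0.45) and Ddx49 (-0.48) were lower with hairpin 2, each with an edgeR adjusted p of 0.375.

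The Myc network holds Max, the partner of Myc, and the Mxd, Mnt and Mga proteins, which bind Max in place of Myc. Of 11 genes listed, 9 were tested. With hairpin 2, 3 were higher and 1 lower at an unadjusted p under 0.05, with a median log2 fold change of 0.35, and 4 lay above every control without overlap (all genes: 8.14%, 6.27% and 10.6% in that order). Mga was at 44.9, 36.2 and 42.1 CPM in the controls, at 35.6, 44.6 and 55.4 labelled hairpin 1, and at 66.3, 74.8 and 57.9 with hairpin 2 (log2 fold change 0.69, SE 0.17, edgeR adjusted p = 0.241). Mxi1 was at 61.6, 65.5 and 50.9 CPM, then 69.2, 85.6 and 75.3, then 74.8, 89.8 and 80.9, so that each hairpin group lay above the controls (hairpin 2 log2 fold change 0.46, SE 0.13, edgeR adjusted p = 0.241). Mxd1 (0.61, SE 0.21) and Mnt (0.57, SE 0.26) were also above the controls with hairpin 2, Mxd3 was below (-0.44, SE 0.17), and Max overlapped (-0.16, SE 0.14). With length and GC trend removed, Mga stood at 0.24, Mxi1 at 0.28 and Mxd1 at 0.48 in that edgeR fit. Mnt, Mxd3 and the other tested genes of the network are not given for that fit, nor are its counts and median.

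Ribosomal RNA itself is hardly read by these counts. Of 9 entries listed for ribosomal or processing RNAs, 6 were in the files and 1, Gm26917, was tested, a long noncoding RNA gene on chromosome 17 (39843013 to 39846341) that is known to overlap a ribosomal RNA repeat. Gm26917 was at 1430, 1640 and 1500 CPM in the controls, at 1440, 2400 and 1470 labelled hairpin 1, and at 742, 366 and 1080 with hairpin 2. Hairpin 2 lay below every other library (log2 fold change -1.06, SE 0.36, edgeR adjusted p = 0.27). The sources used here do not say how RNA was selected for the libraries, and leftover ribosomal RNA and its precursor cannot be told apart in this entry.

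Markers of other cell types were read beside these results, and their part in them was not tested. With hairpin 2 the melanocyte markers summed to 20500 to 25700 CPM, against 21400 to 26900 in the controls, and the 7 cell cycle markers to 2140 to 2590, overlapping the controls. Within that cell cycle sum, Cdk1 lay below every control (log2 fold change -0.35, SE 0.08, edgeR adjusted p = 0.241). Ccnb1, Mcm2, Mcm6, Pcna and Mki67 (0.32, SE 0.26) each overlapped the controls. Erythroid markers (5 genes) ran from 421 to 21500 CPM with hairpin 2, the highest in replicate 2, from 1030 to 1490 labelled hairpin 1, and from 2540 to 4970 in the controls. The 7 fibroblast and matrix markers reached 3280 CPM in replicate 1 labelled hairpin 1, against at most 416 in the controls. With hairpin 2 they ran from 285 to 1410 CPM, the highest in replicate 3, which also had the lowest member sum. The 2 did not go together under the label hairpin 1. There replicate 1, at 3280 CPM for these markers, had a member sum of 4875 CPM, and replicate 2, at 265 CPM, had 4625 CPM. The 7 leukocyte markers were at 33.8 CPM in replicate 2 of hairpin 2 and at 152 to 544 in the other 8 libraries. The 4 endothelial markers ran from 92.6 to 194 CPM in all. Of all these markers only Lum (control replicate 1) and Cd3e (replicate 2 of hairpin 2) were at 0 in a library. With both libraries that stand apart left out, hairpin 2 against control had 14 members at an unadjusted p under 0.05, all lower. The share of all genes in that fit is not given here, so this count describes the members alone.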

How the data were processed

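Per the labels' protocols, RNA of the 9 samples was extracted with TRIzol and sequenced on an Illumina instrument. The authors deposited 1 table a library of raw read counts by gene symbol. Per the submitters' processing notes, the tools were STAR 2.7.0d and Cufflinks and the builds GRCh38 and hg38, which are human, while the symbols in the files are those of mouse. Not given in the sources used here were the counter, the annotation, strand use and RNA selection.

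Counts were fitted in R 4.3.3 with edgeR 4.0.16: filterByExpr by group (minimum count 10, minimum total 15, leaving 14193 of 54532 entries), TMM scaling and a robust quasi-likelihood test over all 9 libraries in 3 groups. Genes passed at an adjusted p under 0.05 (Benjamini-Hochberg, over all tested genes). Hairpin 1, hairpin 2 and the mean of both were each contrasted with control, and hairpin 2 with hairpin 1. Levels are CPM with TMM-scaled library sizes. Exact permutation tests over libraries were two-sided, on the difference of mean log2 CPM. Entries that share a symbol were kept separate. GENCODE M21 supplied gene positions and, for 99.4% of tested genes, the length and GC content of the longest transcript, and promoter sequence from RefSeq. The scripts were tested on simulated data. Counting precision follows from library totals of 15322163 to 17342554.

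The members and gene lists were chosen with earlier results of these data known. Values in every library are given for Myc, for the most abundant member of each role, and for the 5 members of smallest p in each contrast, together 15 genes. From the wider list, the 3 genes of smallest p in each contrast are named, and any other gene named was picked with its values in view. The alternatives varied the scaling, the filter, the tool (DESeq2 1.42.0 and limma-voom from limma 3.58.1), the libraries fitted, a replicate block and a correction for length and GC content.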

Additional observations from a re-analysis of the deposited data

How the results depend on the processing

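For the 15 named members (5 between the hairpins) and 3 named wider-list genes of each comparison, 354 of 360 recomputed log2 fold changes for the label hairpin 1 kept their direction and side of the threshold, as did 347 of 360 for hairpin 2, 340 of 342 for both hairpins and 157 of 160 between the hairpins. The replicate block gave 3, 12, 10 and 4 members at an unadjusted p under 0.05 in these comparisons, in that order, against 4, 12, 11 and 7 without it, and 2 between the hairpins when combined with removal of the length and GC trend. Libraries of the same number did not vary together more than others (correlations of -0.409 to 0.138, against -0.405 to 0.513 for other numbers). No pairing by number was seen, but correlations over all genes cannot show a small shared effect, so whether the numbers pair the samples is not known. DESeq2 took the members past an adjusted p of 0.05 from 0 to 7 with hairpin 2 and from 0 to 1 between the hairpins.

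At an unadjusted p under 0.05, the label hairpin 1 gave 2 members with upper-quartile scaling, 2 with the stricter filter and 8 with the length and GC trend removed. Over all genes, the lower ones at that p numbered 188 as fitted, 183 with upper-quartile scaling and 326 with the trend removed. Both hairpins gave 18 with that trend removed, and hairpin 2 against hairpin 1 gave 2, and also 2 with both libraries that stand apart left out. With the trend removed, the lower genes over all genes went from 477 to 684 for both hairpins and from 743 to 449 between the hairpins. In these 3 comparisons the counts over all genes thus moved in the same direction as those of the members when the trend was removed. With upper-quartile scaling the label hairpin 1 went from 4 to 2 members, while the lower genes over all genes went from 188 to 183. For the stricter filter and the libraries left out, no count over all genes is given here. Leaving out 1 library at a time gave 0 to 5 members for the label hairpin 1, 9 to 16 for hairpin 2, 5 to 13 for both hairpins and 2 to 7 between the hairpins. The median log2 fold change for both hairpins then ran from -0.20 to -0.13. Shares of all genes in these fits and with the replicate block are not given here, so these counts describe the members alone.

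Over all 37 members, 28 of 740 values turned sign for the label hairpin 1, 35 of 740 for hairpin 2 (12 members, among them Gnl3, Nop58, Utp20, Heatr1 and Dkc1), 20 of 703 for both hairpins and 63 of 740 between the hairpins. The ranges that follow are over leaving out 1 library. Gar1 with the label hairpin 1 (0.04) went to -0.04 with the trend removed, alone or with the replicate block, to -0.05 without control replicate 2, to -0.07 without replicate 1 labelled hairpin 1 and to -0.07 without both libraries that stand apart. Its range was -0.07 to 0.12. Wdr43 ranged from -0.09 to 0.02 for the label hairpin 1, from -0.08 to 0.05 for hairpin 2 (0.01 without control replicate 1) and from -0.09 to 0.01 for both hairpins. Ncl with hairpin 2 ranged from -0.17 to 0.01, the latter without control replicate 3. Fitting only the groups compared gives no value for both hairpins together. The cause of these shifts was not tested.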

Other observations

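Several small nucleolar RNAs are cut from introns of noncoding host RNAs, which were listed beside the protein factors. Of 8 such hosts listed, 7 were tested. With hairpin 2, 0 had an unadjusted p under 0.05 in edgeR, and the median log2 fold change was 0.04, against -0.19 for the 37 protein-coding members. For the label hairpin 1, 2 hosts were higher at an unadjusted p under 0.05, against 1.85% of all genes. Snhg6 was at 18.5, 19.0 and 20 CPM in the controls, at 23.3, 26.2 and 25 CPM labelled hairpin 1, and at 19.0, 21.4 and 17.4 CPM with hairpin 2. Every library labelled hairpin 1 was above every control (log2 fold change 0.37, edgeR adjusted p = 1). Zfas1 was at 23.1 ± 0.821 CPM in controls and 30.1 ± 2.79 CPM labelled hairpin 1 (SD, n = 3; log2 fold change 0.39, edgeR adjusted p = 1). Gas5, the most abundant host, overlapped between all groups, at 53.9 ± 5.20, 57.4 ± 13.0 and 55.5 ± 9.69 CPM.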
